A study of Gallus gallus with 6 samples.

Results

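This section describes the genes of chicken neural tube cells whose transcripts were close to control when a constitutively active MEK1 (MEK1ca) was expressed, and lower when HOXB8 was expressed together with MEK1ca. They were chosen from the measured counts. Counts were scaled by the library total to CPM and averaged over the 2 libraries of each condition. A gene entered when it had at least 5 CPM in pCIG and in MEK1ca, neither of these below 0.8 of the other, ratios of MEK1ca + HOXB8 to MEK1ca and to pCIG of at most 0.6, and both MEK1ca + HOXB8 libraries below the other 4. A pseudocount of 0.5 CPM was added to both sides of each ratio. Of 17108 genes counted, 9068 had the level, 7157 of these had MEK1ca near pCIG in this sense, and 40 met every criterion, which is 0.559% of the 7157 and 0.234% of all genes. These 40 genes are called genes lowered only with HOXB8, where "only" means among these 3 conditions. Because the rule used all 6 libraries, their falls in MEK1ca + HOXB8 are given as a description and carry no test.

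RNA-Seq was made from trunk neural tube cells of chicken embryos, electroporated in ovo on both sides at stage HH 11, dissected 18 h later, pooled over embryos and sorted by FACS for GFP with exclusion of dying cells. The pCIG embryos received the empty vector, which carries nuclear GFP, at 2 µg/µL. The MEK1ca embryos received MEK1ca vector at 1 µg/µL with pCIG at 1 µg/µL. The MEK1ca + HOXB8 embryos received MEK1ca and HOXB8 vectors at 1 µg/µL each. Each condition had 2 libraries, stated to be independent RNA samples. Both expression vectors carry the same GFP, so the sort does not show that a cell holds both, and the study assumed that it did, stating that cells of this tissue and stage nearly always take up both plasmids. The pCIG and MEK1ca libraries are marked as reanalysed, with results published earlier, and the MEK1ca + HOXB8 libraries are not, so any difference in how these libraries were made and the presence of HOXB8 cannot be told apart. Whether they were made at different times is not stated. HOXB8 alone was not analysed here. In sorted bulk cells, fewer cells of a type and less RNA per cell cannot be told apart either.

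HOX proteins are homeodomain transcription factors that give cells along the body axis their regional identity, and HOXB8 belongs to those used in the trunk. A HOX factor can raise or lower a target depending on its partners at the DNA. MEK1 is the kinase that phosphorylates and activates ERK, the last step of the MAPK cascade downstream of FGF and other receptors, and active ERK changes transcription of feedback inhibitors and growth genes. The count table carries Ensembl identifiers without symbols and none of its 17108 identifiers matched the RefSeq table at hand, so the genes are located by their galGal4 position (Ensembl 85), identifiers are given for 2 of them, and no role is assigned to any. For the same reason HOXB8 itself, the cell type markers and the gene lists were not read from these libraries.

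Library totals lay between 63637195 and 90460770 counts, and 14054 to 14693 genes had a count. One library stood apart in the form of its counts. Even numbers made up 99.4% of the low counts (1 to 10) of MEK1ca replicate 2 but 51.8% to 57.0% of those of the remaining 5 libraries, and 33 of the 40 genes had an even count there, against 19 to 22 in each of the others. A doubling of all counts in a library would not alter CPM. Not every count of MEK1ca replicate 2 was even, and how the even counts arose was not tested. Without that library the rule found 34 genes, of which 28 were among the 40.

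The 40 genes together held 6783 CPM in pCIG replicate 1 and 6074 CPM in pCIG replicate 2. They held 6039 and 6234 CPM in the MEK1ca libraries. In MEK1ca + HOXB8 they held 2630 and 3168 CPM. Their summed level was thus 6429 ± 501 CPM (SD, n = 2) in pCIG, 6137 ± 138 CPM in MEK1ca and 2899 ± 380 CPM in MEK1ca + HOXB8, a ratio of 0.472 to MEK1ca and 0.451 to pCIG. The 2 most abundant genes made up 47.1% of the drop from MEK1ca. Without them the sums were 3641 and 3489 CPM in pCIG, 3223 and 3603 CPM in MEK1ca, and 1560 and 1838 CPM in MEK1ca + HOXB8. The lower sums with HOXB8 follow from the rule, which admits no gene above 0.6 of either other condition. Scaled by exonic length (TPM), the pCIG libraries had sums of 4854 and 4303, the MEK1ca libraries 4549 and 4462, and those with HOXB8 added 1865 and 2392.

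**Figure D1:**
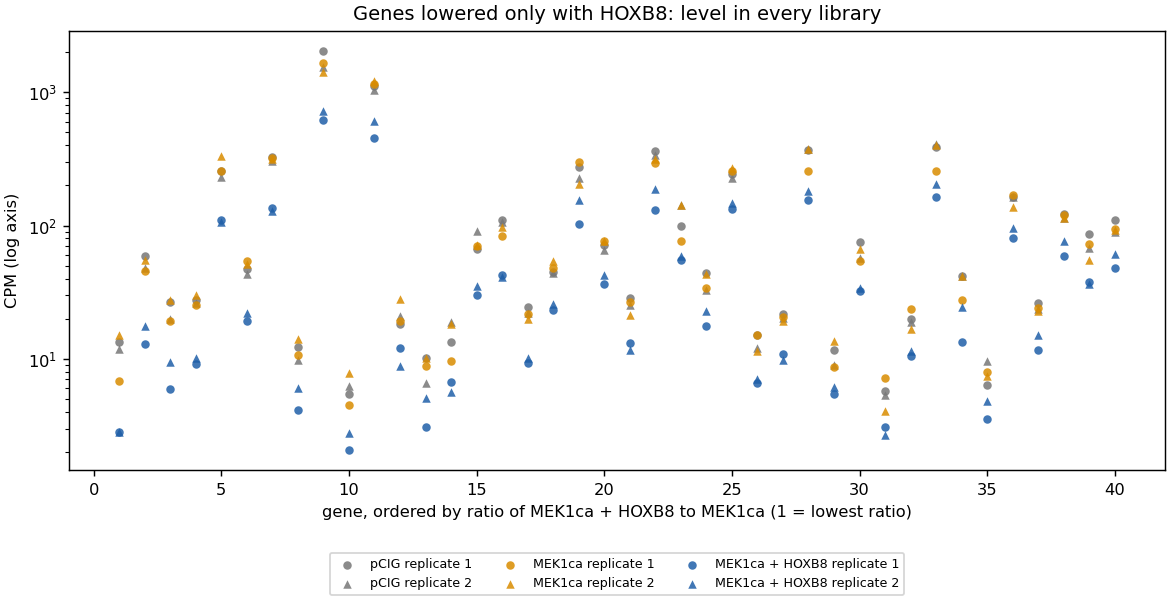
Level of each of the 40 genes in CPM (log axis) in each of the 6 libraries, with genes ordered from left to right by the ratio of mean CPM in MEK1ca + HOXB8 to that in MEK1ca, from 0.29 to 0.59. Circles are replicate 1 and triangles replicate 2; by the choice of genes both blue symbols lie under the 4 others in every column, while grey and orange symbols interleave in most.

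Single genes fell to between 0.29 and 0.59 of MEK1ca, with a median of 0.523, and to between 0.25 and 0.59 of pCIG, with a median of 0.484. On the log2 scale the medians were -0.93 against MEK1ca and -1.05 against pCIG, while over the 7157 genes with MEK1ca near pCIG they were 0.04 and 0.02. The falls crowded near the limit of the rule. Against MEK1ca, 22 genes had a ratio above 0.5, 13 had a ratio above 0.4 and up to 0.5, and 5 had a ratio of 0.4 or less. Both ratios were under 0.5 in 15 genes. In MEK1ca + HOXB8 the lowest count of a gene of the set in a library was 187. The lowest means there were 2.41 CPM and, per exonic length, 0.764 TPM.

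The lowest ratio to MEK1ca over all 6 libraries was that of ENSGALG00000014235, on the minus strand at chr1:70917810-71014077, a gene of 6310 exonic bases in 5 exon blocks (an exon block being a stretch of merged annotated exons). Its level was 13.3 and 11.9 CPM in pCIG, 6.87 and 15.1 CPM in MEK1ca, and 2.82 and 2.84 CPM in MEK1ca + HOXB8. The MEK1ca + HOXB8 libraries were almost equal, whereas the MEK1ca libraries lay far apart and spanned the pCIG values. The mean was 0.290 of MEK1ca and 0.255 of pCIG. This place rested on MEK1ca replicate 2, the library with the even counts. Without it the log2 ratio of ENSGALG00000014235 to MEK1ca went from -1.79 to -1.15, and that of the next gene, at chrZ:15930691-15938408, from -1.69 to -1.55. The order of these genes was also exchanged with a pseudocount of 1 CPM (-1.64 and -1.65) and without MEK1ca + HOXB8 replicate 2 (-1.79 and -1.92).

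Next came 3 genes whose mean in MEK1ca + HOXB8 was at most 0.36 of that in MEK1ca. The gene at chrZ:15930691-15938408 had 59.1 and 47.9 CPM in pCIG, 45.5 and 54.9 CPM in MEK1ca, and 12.9 and 17.6 CPM in MEK1ca + HOXB8. The gene at chrZ:59239725-59500137, the one with the most exon blocks of the set (90) and the most exonic bases (19260), had 26.9 and 20.05 CPM in pCIG, 19.3 and 27.8 CPM in MEK1ca, and 5.94 and 9.41 CPM in MEK1ca + HOXB8. The gene at chr3:86766922-86825286 had 27.7 and 26.4 CPM in pCIG, 25.5 and 30.0 CPM in MEK1ca, and 9.19 and 10.1 CPM in MEK1ca + HOXB8. In these 3 genes the lowest library without HOXB8 was at least 2.05 times the highest with it, and the pCIG and MEK1ca libraries overlapped.

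A pair of genes of chromosome 7 fell from a MEK1ca level above that of pCIG. The gene at chr7:13818412-13852740 had 256 and 233 CPM in pCIG, 255 and 334 CPM in MEK1ca, and 110 and 107 CPM in MEK1ca + HOXB8, and its ratio of MEK1ca to pCIG, 1.21, was the highest of the 40. The gene at chr7:21670394-21673766 had 46.9 and 43.3 CPM in pCIG, 53.9 and 51.2 CPM in MEK1ca, and 19.4 and 22.2 CPM in MEK1ca + HOXB8. In the second of these the MEK1ca libraries lay above both pCIG libraries, and in the first the lower MEK1ca library lay between them.

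The steadiest of the strong falls was that at chr1:57819052-57871230, a gene of 4 exon blocks. It had 326 and 303 CPM in pCIG, 318 and 317 CPM in MEK1ca, and 135 and 128 CPM in MEK1ca + HOXB8. The 4 libraries without HOXB8 lay close together, and the lowest of them was 2.25 times the higher MEK1ca + HOXB8 library.

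The most abundant of the 40 genes was ENSGALG00000004361, on the plus strand at chr10:7329784-7416677 with 9297 exonic bases in 20 blocks. It had 2031 and 1540 CPM in pCIG, 1670 and 1418 CPM in MEK1ca, and 618 and 726 CPM in MEK1ca + HOXB8. The means were 1786 ± 347, 1544 ± 179 and 672 ± 76.4 CPM (SD, n = 2), a ratio of 0.435 to MEK1ca and 0.377 to pCIG. Its replicates were apart in every condition, most in pCIG, and the lowest library without HOXB8 was 1.95 times the higher library with it.

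The second most abundant gene, at chr25:483723-490804, had 1111 and 1045 CPM in pCIG, 1146 and 1214 CPM in MEK1ca, and 452 and 604 CPM in MEK1ca + HOXB8. The order MEK1ca above pCIG above MEK1ca + HOXB8 held without overlap between the libraries. This gene is on the minus strand. A further gene of the set, at chr25:494218-508583 on the plus strand, was far less abundant, with 3413 bases between the 2 spans. It had 12.3 and 9.80 CPM in pCIG, 10.7 and 14.1 CPM in MEK1ca, and 4.15 and 6.04 CPM in MEK1ca + HOXB8. An annotated gene on the other strand overlaps exons of the first and was listed at 0 in all 6 libraries. Another overlaps exons of the second and stayed at or under 0.152 CPM in every library.

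Other abundant genes spread more between the MEK1ca libraries. The gene at chr2:8785742-9406733, whose span of 620992 bases was the longest of the set, had 386 and 411 CPM in pCIG, 258 and 402 CPM in MEK1ca, and 164 and 205 CPM in MEK1ca + HOXB8. The gene at chr14:3222765-3232769 had 366 and 377 CPM in pCIG, 257 and 375 CPM in MEK1ca, and 156 and 182 CPM in MEK1ca + HOXB8. In both genes MEK1ca replicate 1 was well under replicate 2 and under pCIG.

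The gene at chr12:14432245-14482570 had 359 and 337 CPM in pCIG, 293 and 314 CPM in MEK1ca, and 131 and 188 CPM in MEK1ca + HOXB8. It is one of 3 genes in which both MEK1ca libraries lay below both pCIG libraries, and its level with HOXB8 was lower again. The gene at chr3:105466097-105513573 had 245 and 227 CPM in pCIG, 257 and 269 CPM in MEK1ca, and 132 and 147 CPM in MEK1ca + HOXB8, with every library of a condition apart from those of the others. The gene at chr3:98778414-98780948, with 2 exon blocks, had 163.0 and 162.8 CPM in pCIG, 170.0 and 138 CPM in MEK1ca, and 81.0 and 96.0 CPM in MEK1ca + HOXB8.

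The shortest gene of the set, at chr21:1415994-1416790 with 510 exonic bases, was its highest per length, with a pCIG mean of 969 ± 142 TPM, a MEK1ca mean of 992 ± 263 TPM and, with HOXB8 added, 488 ± 153 TPM (SD, n = 2). In CPM the pCIG libraries gave 276 and 228, the MEK1ca libraries 298 and 205, and those with HOXB8 added 103 and 156. Its replicates were far apart in all 3 conditions, and the lowest library without HOXB8 was 1.31 times the highest with it. At the other end the gene at chr1:2226706-2647006, second lowest in level, had 5.42 and 6.22 CPM in pCIG, 4.51 and 7.84 CPM in MEK1ca, and 2.07 and 2.76 CPM in MEK1ca + HOXB8. The remaining 23 genes had ratios to MEK1ca from 0.456 to 0.589. Levels per length ran from 1.94 to 969 TPM in pCIG over the 40, with a median of 40.1 TPM, and the median in MEK1ca + HOXB8 was 21.0 TPM.

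Over the 40 genes the ratio to MEK1ca had a Spearman correlation of 0.04 with the level in pCIG and MEK1ca. This is a description across genes that share all 6 libraries. The rule capped the ratio and set a minimum for the level, and the MEK1ca libraries enter both. Whether the size of the fall depends on abundance is therefore not read from this correlation. The mean level over pCIG and MEK1ca had a median of 48.4 CPM, against 58.7 CPM over the 7157 genes with MEK1ca near pCIG. At 100 CPM or more were 12 of the 40 (30.0%), against 32.2% of the 7157. Under 20 CPM were 10 of the 40 (25.0%), against 18.2%.

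**Figure D2:**
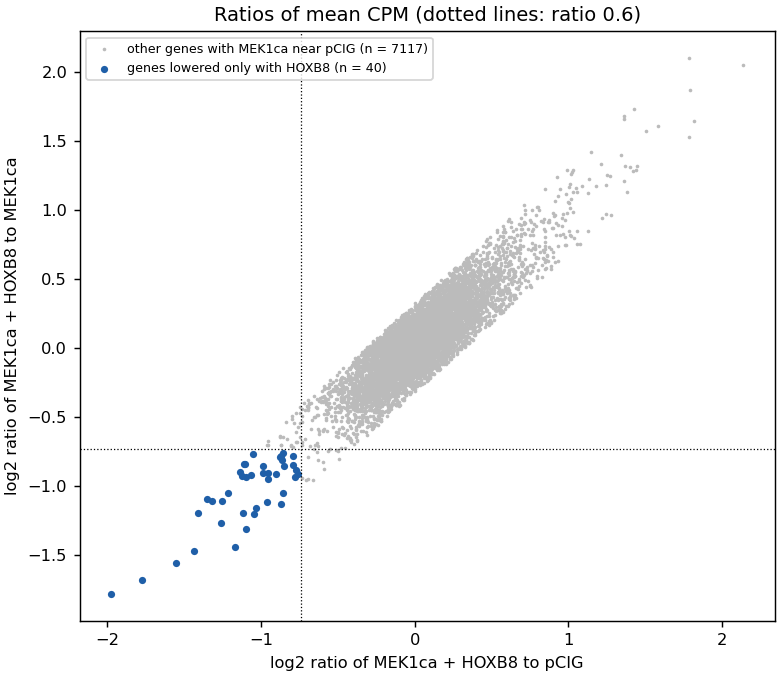
Log2 ratio of mean CPM of MEK1ca + HOXB8 to pCIG (horizontal) and to MEK1ca (vertical) for the 7157 genes with at least 5 CPM in pCIG and MEK1ca and neither of these under 0.8 of the other. Dotted lines mark the ratio of 0.6; the 40 genes (blue) fill the corner under both lines, with most near the lines and 1 gene at -1.97 (pCIG) and -1.79 (MEK1ca), and both axes share the MEK1ca + HOXB8 libraries.

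At the edge of the rule the 3 genes just inside had a larger ratio of 0.587 (chr1:68715574-68928375), 0.589 (chr18:2537504-2568893) and 0.590 (chr3:105466097-105513573). The 3 just outside had a larger ratio of 0.603 (chr5:16827733-16840932), 0.607 (chr18:6080249-6129240) and 0.612 (chr1:175770579-175792411). The set therefore has no gap at its border. With a limit of 0.5 it held 15 genes, with 0.7 it held 90 and with 0.8 it held 332. All 40 genes that met both ratios also met the requirement that the libraries did not overlap. The mirrored rule, for ratios of at least 1.67 with both MEK1ca + HOXB8 libraries above the other 4, found 103 genes. That imbalance depended on the scaling. With TMM factors (trimmed mean of M values, which scale libraries on the bulk of genes) the rule found 64 lowered and 75 raised genes, and all 40 were among the 64.

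MEK1ca and pCIG were close by the choice of genes, with ratios from 0.823 to 1.21 and a median of 0.968. MEK1ca was above pCIG by its mean in 17 of the 40 and below it in 23. The 2 libraries of each did not overlap in 8 of the 40, with MEK1ca above in 5 and below in 3, whereas among the 7157 genes this was so in 3805 (53.2%). With 2 libraries against 2 an exact two-sided permutation test cannot give a p below 0.333, so no single gene was tested in this way.

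The rule did not use the distance between replicates directly. The median absolute log2 difference between the 2 libraries of a condition was 0.15 in pCIG for the 40 and 0.09 for the 7157. In MEK1ca it was 0.30 against 0.08, and in MEK1ca + HOXB8 it was 0.22 against 0.13. Replicates more than 1.5-fold apart were found in 1 of the 40 in pCIG (2.5%, against 0.755% of the 7157), in 8 in MEK1ca (20%, against 0.768%) and in 4 in MEK1ca + HOXB8 (10%, against 0.713%). The 2 libraries of a condition thus lay further apart in the 40 than in the median gene, most in MEK1ca. These values come from the same libraries that chose the genes, and the difference was not tested. Replicate 1 was above replicate 2 in 31 of the 40 in pCIG (below in 22.5%, against 47.1% of the 7157) and below it in 31 of the 40 in MEK1ca + HOXB8 (77.5%, against 50.9% of the 7157), while in MEK1ca it was below in 23 (57.5%, against 53.8%).

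**Figure D3:**
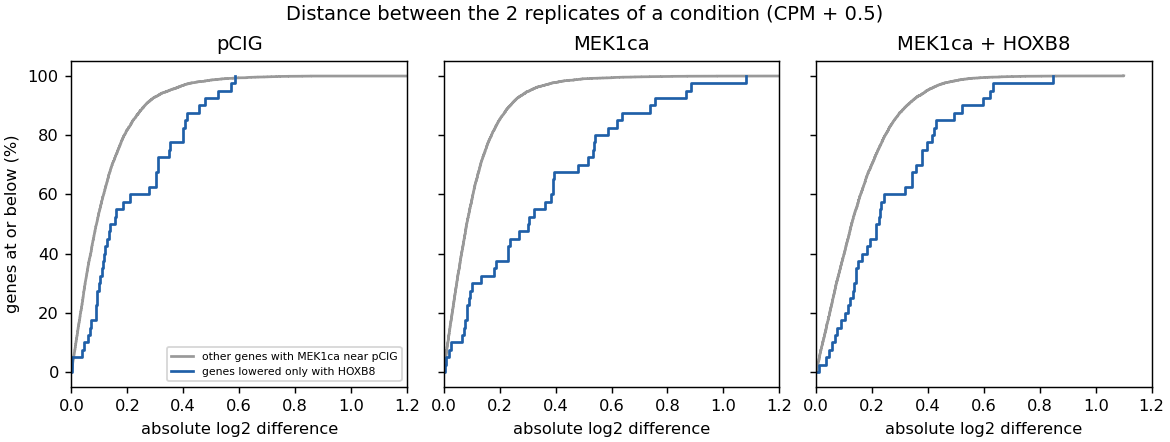
Cumulative share of genes by the absolute log2 difference between the 2 replicates, in each condition, for the 40 genes (blue) and the other genes with MEK1ca near pCIG (grey). The blue curves lie to the right of the grey ones in all 3 panels, most in MEK1ca, where the medians were 0.30 for the 40 and 0.08 for all 7157; grey genes beyond 1.2 are not drawn.

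Across all genes, 13582 passed a filter on low counts and were tested with edgeR's quasi-likelihood test at a Benjamini-Hochberg adjusted p of up to 0.01, and all 40 were among them. In MEK1ca + HOXB8 against MEK1ca, 1085 genes (7.99% of those tested) were lower and 1187 higher, and 34 of the 40 were called lower. In MEK1ca + HOXB8 against pCIG, 801 genes (5.9%) were lower and 1210 higher, and 33 of the 40 were called lower. In MEK1ca against pCIG, 836 genes (6.16%) were called in either direction, and 0 of the 40 were, by edgeR or by DESeq2, with 2 of the 40 and 10.98% of the 7157 at an unadjusted edgeR p under 0.05. By edgeR none of the 7157 was called either, so its 0 follows from the limits on the ratio of MEK1ca to pCIG. Calls by DESeq2 among the 7157 were not counted. These contrasts were used to choose the 40, so the counts are shown beside the background and nothing is read from them. With scaling by library size alone the calls were 646 lower and 1542 higher against MEK1ca, 497 lower and 1436 higher against pCIG, and 32 of the 40 in each. That scaling moved the median log2 fold change of all tested genes from 0.02 to 0.12 against MEK1ca and from 0.02 to 0.10 against pCIG.

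The 40 had edgeR log2 fold changes with a median of -1.07 (range -2.06 to -0.88) against MEK1ca and -1.15 (-2.24 to -0.85) against pCIG, on a scale set by TMM factors of 1.04 and 1.05 for the MEK1ca + HOXB8 libraries and 0.964 to 0.995 for the others. Both comparisons share the MEK1ca + HOXB8 libraries. Called in both were 32 of the 40, and in neither 5. The shares of all tested genes called in both or in neither are not given here. These counts come from the contrasts that chose the genes, so nothing is read from them. Not called against MEK1ca were 6 of the 40. Among them were the shortest gene (chr21:1415994-1416790) and the one with the longest span (chr2:8785742-9406733). Another, at chr22:953202-957709, had 98.7 and 142 CPM in pCIG, 76.5 and 142 CPM in MEK1ca, and 55.5 and 59.1 CPM in MEK1ca + HOXB8. In that gene the pCIG and MEK1ca libraries were widely spread, MEK1ca more so (SD 46.1 against 30.7 CPM), while those with HOXB8 were close together.

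Membership depended on single libraries. Leaving out 1 library at a time and averaging over the rest, the rule found 33 to 59 genes. Of the 40, 29 and 36 remained without pCIG replicates 1 and 2, 27 and 28 without MEK1ca replicates 1 and 2, and 26 and 39 without MEK1ca + HOXB8 replicates 1 and 2. In 9 genes membership held without any 1 of the 6 libraries, in 11 it held in 5 of the 6 cases, in 17 in 4, and in 3 in fewer. The 9 were those at chr1:57819052, chr3:86766922, chr7:21670394, chrZ:15930691, chrZ:59239725 and chr25:483723 described above, a gene at chr19:5794727 and a pair on chromosome 11. The gene at chr19:5794727-5796856 had 24.3 and 22.3 CPM in pCIG, 21.7 and 19.8 CPM in MEK1ca, and 9.26 and 10.2 CPM in MEK1ca + HOXB8. On chromosome 11, the gene at chr11:529483-535232 had 45.1 and 44.0 CPM in pCIG, 47.8 and 54.5 CPM in MEK1ca, and 23.2 and 25.7 CPM in MEK1ca + HOXB8. The other, at chr11:15430489-15845338, had 21.8 and 20.1 CPM in pCIG, 20.5 and 19.2 CPM in MEK1ca, and 10.8 and 9.88 CPM in MEK1ca + HOXB8. All 9 kept their place under every other setting tried as well, 12 settings in all. Those other settings kept 36 to 40 of the 40 and reused the same counts, so this is no sign of stability.

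The rule used no feature of gene structure, and the 40 genes are described here beside the 7157 without a test. Their exonic length had a median of 2994.5 bases, with the middle part of the set from 1586 to 5180, against a median of 2424 bases. Their span from first to last exon had a median of 25642 bases against 15010. A span of 100000 bases or more was found in 8 of the 40 (20%) and in 432 of the 7157 (6.04%). At the same time exon blocks were fewer, with a median of 8 against 10, and 11 of the 40 (27.5%) had 4 blocks or fewer, against 15.1%. Both ends are represented, with very long genes at chr2:8785742, chr1:2226706 and chr11:15430489 and short genes of 2 or 3 blocks at chr21:1415994 and chr3:98778414. A single exon block was found in 1 of the 40 (2.5%), at chr1:97651374-97654841, and in 1.68% of the 7157. That gene had 122 and 114 CPM in pCIG, 120 and 114 CPM in MEK1ca, and 59.0 and 76.8 CPM in MEK1ca + HOXB8.

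**Figure D4:**
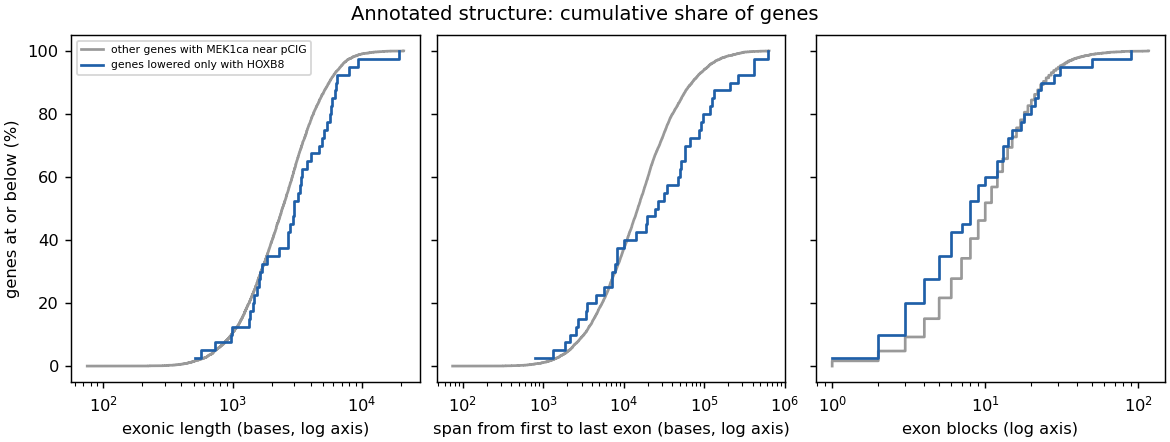
Cumulative share of genes by exonic length, by span from first to last exon and by number of merged exon blocks (all log axes), for the 40 genes (blue) and the other genes with MEK1ca near pCIG (grey). In the middle panel the blue curve is right of the grey one above about the median, 25642 against 15010 bases for all 7157, and in the right panel it is left of it at low block numbers, with 27.5% against 15.1% at 4 blocks or fewer.

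The 40 genes lay on 18 chromosomes, with 7 on chromosome 1, 5 on chromosome 3, 4 each on chromosomes 7 and Z, 3 each on chromosomes 2 and 18, 2 each on chromosomes 11 and 25, and 1 on each of 10 others. Chromosome Z held 10% of the 40 and 4.64% of the 7157, and chromosome 7 held 4 of its 247 such genes. On 9 chromosomes with 100 or more of the 7157 there was no gene of the set. On the plus strand were 17 and on the minus strand 23. The numbers per chromosome are small and were not tested.

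A single pair of the 40 was adjacent in position order, on the minus strand of chromosome 18 with 621 bases between them. The gene at chr18:2535558-2536882, of 573 exonic bases, had 75.02 and 56.8 CPM in pCIG, 53.9 and 66.7 CPM in MEK1ca, and 32.2 and 33.8 CPM in MEK1ca + HOXB8. Its neighbour at chr18:2537504-2568893, of 1368 exonic bases, had 110.3 and 89.2 CPM in pCIG, 94.3 and 92.6 CPM in MEK1ca, and 48.3 and 61.4 CPM in MEK1ca + HOXB8. Their ratios to MEK1ca were 0.551 and 0.589. A further gene of the set lay 204135 bases further on, at chr18:2773029-2797359 on the plus strand with 1 gene between, and its ratio to MEK1ca was 0.530. The rule admits no ratio above 0.6, and 22 of the 40 had a ratio to MEK1ca above 0.5. Nothing is therefore read from the nearness of these ratios.

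Exons of another annotated gene overlapped those of 5 of the 40, on the opposite strand in 4 of them, at chr7:13818412, chr19:5794727 and both places on chromosome 25. The strand setting of the counting is not stated in the sources used here, so the reads of such partners cannot be told apart with certainty.

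The genes next to the 40 were not used by the rule and were read in the same fit. Of the tested genes next to the 40, 56 were not themselves in the set and did not overlap it in span. Among these 56, 6 were called lower and 1 higher in MEK1ca + HOXB8 than in MEK1ca by edgeR with the same threshold. Over all tested genes 7.99% were lower. Next to the 7157 genes, 9207 such neighbours were tested, with 722 lower and 804 higher. The median log2 fold change of the 56 was -0.22, against 0.02 for the 9207, and it was below 0 in 38 of the 56 (67.9%, against 48.5%). Against pCIG, 6 of the 56 were lower and 2 higher, and of the 9207, 538 were lower and 829 higher. These counts are small, the neighbours share the libraries that chose the 40, and no test of the difference was made.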

How the data were processed

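RNA-Seq libraries of GFP-sorted chicken neural tube cells in 3 conditions, 2 libraries each, were analysed from the deposited raw counts, which the authors obtained by aligning reads to galGal4 with Subread and counting per Ensembl 85 gene with featureCounts after linear cDNA amplification. Their versions are not given in the sources used here. The deposited table also holds exonic lengths. The authors' tables of fold changes and p-values were not used. All 40 genes and every gene list were chosen with earlier results of these data known.

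CPM, TPM and ratios were computed in Python 3.11.15 (pandas 2.3.3, numpy 2.4.6) with a pseudocount of 0.5 CPM. Exons were merged into blocks. All tested genes were fitted over 6 libraries with edgeR 4.0.16 in R 4.3.3 (filterByExpr, TMM, robust quasi-likelihood test, Benjamini-Hochberg), with DESeq2 1.42.0 as an alternative. The fit was tested on simulated data for MEK1ca + HOXB8 against MEK1ca, with 13582 genes. It called 86 of 100 genes lowered 2 times, 100 of 100 lowered 4 times and 2 of 13382 unchanged genes. The simulated counts were drawn from the model and dispersions of the fit itself, with lowered genes but no raised ones. Lowered genes were picked only among those with a mean above 5 CPM, and the unchanged genes were all the rest. These rates need not hold for the real libraries. Genes named are the 10 most abundant, the 10 with the lowest ratio to MEK1ca, adjacent ones and 3 on each side of the limit. Those at chr1:97651374, chr11:529483, chr11:15430489, chr19:5794727, chr22:953202 and chr18:2773029 were chosen after their values were seen. With 2 libraries per condition, p-values weigh a difference between conditions against a spread between libraries that is estimated partly from other genes. Each library was pooled over embryos, so the spread between embryos was not measured. The 33 gene lists and the motifs drawn up were not applied, because no symbols or sequences could be joined.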

Additional observations from a re-analysis of the deposited data

How the results depend on the processing

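The rule found 64 genes with TMM factors and 64 with the size factors of DESeq2, in place of 40. Other pseudocounts or minimum levels gave 36 to 41 genes, and leaving out 1 library 33 to 59. The median log2 ratios moved by less than the spread between replicates under all 12 settings, but each median is over the genes chosen anew by the same limits, so this is no sign of stability. Of 204 log2 ratios of 17 named genes to MEK1ca, 3 moved beyond that spread, all upon rescaling, and apart from rescaling their sign was fixed by the rule. DESeq2 called 3081 genes in MEK1ca + HOXB8 against pCIG (edgeR 2011) and 1547 in MEK1ca against pCIG (836). It called 38 of the 40 lower against MEK1ca and 37 against pCIG. Of 15156 genes tested it called 1712 and 1407 lower in these comparisons. Its total against MEK1ca was 3370 (edgeR 2272). Without 1 library, calls ran from 1148 to 1953 in MEK1ca + HOXB8 against MEK1ca (2272 with all), from 702 to 2158 against pCIG and from 356 to 880 in MEK1ca against pCIG, and calls of the 40 from 20 to 35 and from 22 to 40. Falls beyond 1.5 times came without MEK1ca replicate 1 (1175) and MEK1ca + HOXB8 replicate 1 (1148) in the first comparison, without pCIG replicates 1 (831) and 2 (702) and MEK1ca + HOXB8 replicate 1 (1066) in the second, and without pCIG replicates 1 (440) and 2 (356) and MEK1ca replicate 1 (537) in the last. The lone library of a condition was then assumed to vary like the rest. Calls of the 40 rest on contrasts that chose the genes, so nothing is read from those given above. Those of the fits without 1 library are not given. The cause of the falls in the totals was not tested.

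With the replicate number as a block, 2170, 1916 and 921 genes were called in these 3 comparisons. Called lower against MEK1ca and pCIG were 1011 and 746 of 13582 genes tested. Of the 40, which were chosen on these contrasts, 39 and 37 were called lower. The numbers are not shown to pair the libraries, with correlations of deviations of 0.13, -0.11 and -0.03. With MEK1ca + HOXB8 numbers crossed, chosen after seeing the data, 3097, 2771 and 1230 were called. Halving the counts of MEK1ca replicate 2, also chosen after seeing the data, gave 2276, 2081 and 845. Calls in gene lists were not run.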
